A study of Rattus norvegicus with 6 samples.

Results

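Adult β-cells carry genes that come up as the cells mature after birth and keep others, used in progenitors or in young β-cells, low. The values of 9 such maturity and immaturity markers were taken from arrays of replicating and quiescent rat β-cells: *Ucn3*, *Esrrg*, *Npy*, *Neurog3*, *Aldh1a3*, *Sox4*, *Hes1*, *Dlk1* and *Cd81*. The members were taken by gene symbol from the array files, with no use of their values. All 9 were on the array, with 13 of its 45598 non-control probes, and they are 9 of 18134 genes with a symbol. Islets of young adult male Wistar rats were cultured overnight with EdU, a thymidine analogue that is built into DNA during S phase. Islet cells were then fixed, sorted by size, granularity and the zinc dye Newport Green, and divided into EdU-positive (replicating) and EdU-negative (quiescent) β-cells. Each of 3 islet preparations, pooled from 4 rats, gave 1 array of each kind, so that there were 6 arrays. All cells of both groups had been in culture with EdU and had been fixed, and EdU marks cells that passed through S phase during the labelling, whatever their phase when they were sorted.

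In adult islets, urocortin 3 is a secreted peptide that acts on neighbouring δ-cells, and its expression in rodents accompanies the gain of glucose responsiveness. The nuclear receptor encoded by *Esrrg* drives oxidative metabolism in mature β-cells. Neuropeptide Y and CD81 mark immature β-cells, *Neurog3* and *Sox4* belong to the endocrine progenitor programme, *Hes1* and *Dlk1* belong to the Notch system that restrains it, and *Aldh1a3* is raised in β-cells that lose identity under metabolic stress. Whether β-cells that replicate step back towards an immature state is a standing question in the field.

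Every value comes from probes of 60 bases, and for some of the genes the choice of probe decided the direction. The probes are therefore shown first, 5′ to 3′, in lower case, with their place on the rat build rn4 as the array files give it. Only the last 30 bases are printed for probes towards the 3′ end of a transcript and for the middle probe of *Sox4*. *Ucn3* was read by 1 probe at chr17:77488369-77488428 on the plus strand, starting at base 420 of its transcript, and *Hes1* by 1 probe at chr11:72605138-72605197 on the minus strand, starting at base 334. The *Npy* probe lay at chr4:78045125-78045184 on the plus strand, and capitals mark the polyadenylation signal hexamer AATAAA in it.
Ucn3: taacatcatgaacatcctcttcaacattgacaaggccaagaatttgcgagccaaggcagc
Hes1: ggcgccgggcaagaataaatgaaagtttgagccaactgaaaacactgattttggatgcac
Npy, last 30 bases: tatatgtgtgtttaAATAAAgtatcatgca

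*Sox4* had 3 probes along the same transcript on the plus strand of chromosome 17, starting at bases 1419, 2147 and 4609, and *Aldh1a3* had 2 on the minus strand of chromosome 1. These are printed because probes of the same gene gave ratios of opposite sign. The *Sox4* probes lay at chr17:42174303-42174362, chr17:42175031-42175090 and chr17:42177493-42177552. The 5′ probe of *Aldh1a3* is aligned over chr1:120847772-120853625, a span of 5854 bases for a probe of 60, so that it crosses at least 1 intron, and the 3′ probe lay at chr1:120846281-120846340. No part is marked in capitals.
Sox4, 5′ probe: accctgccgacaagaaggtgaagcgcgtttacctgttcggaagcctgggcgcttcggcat
Sox4, middle probe, last 30 bases: aaccatgtcccgccgttggagaaggagcgc
Sox4, 3′ probe, last 30 bases: tgctatataccttctgtaaataactttttt
Aldh1a3, 5′ probe: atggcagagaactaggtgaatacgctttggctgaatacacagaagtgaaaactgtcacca
Aldh1a3, 3′ probe, last 30 bases: tcggacactgaatcttcggtatctcaataa

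No spot was saturated, and between 80.8% and 96.4% of probes were well above background on an array. Quiescent array 2 stood apart from the rest. Its Pearson's r with the other arrays over all probes lay between 0.654 and 0.830, against 0.868 to 0.986 for the other pairs. Feature Extraction marked 1583 of its spots as outliers, against 252 to 299 elsewhere. Quiescent array 1 came next, with an r of 0.868 to 0.887 with the remaining arrays, which had 0.943 to 0.986 among themselves. On both of these quiescent arrays 96.4% of probes were well above background, against 80.8% to 87.3% elsewhere. They belong to preparations 1 and 2. Across probes, which are not independent replicates, the log2 ratios of preparations 1 and 2 had an r of 0.63, those of 1 and 3 an r of 0.165 and those of 2 and 3 an r of 0.0167. Ratios of the markers are therefore also given without preparation 2. The 4 replication genes looked at, *Mki67*, *Pcna*, *Top2a* and *Cdk1*, were all called higher in the EdU-positive cells, with log2 ratios of 2.33, 1.68, 3.76 and 4.38. The call of *Mki67* was lost without preparation 1 and without preparation 3, and that of *Pcna* without preparation 1 and with the processed signal.

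None of the 9 markers was called between replicating and quiescent β-cells. A call required an unadjusted p no higher than 0.05 together with a log2 ratio of 1 or more in either direction, in a limma fit that paired the arrays by islet preparation. These thresholds called 8.49% of the 18134 named genes, each read by its probe with the highest mean log2 value, 5.87% higher and 2.62% lower in replicating cells. No marker and no probe of the array had an adjusted p under 0.05 (0 of 45598 probes; 9.6% had an unadjusted p of at most 0.05). Of the markers, 0 of 9 had an unadjusted p of at most 0.05, against 9.56% of named genes, and their smallest adjusted p was 0.475 in limma. Of the 9 ratios 8 were above 0, where 51% of named genes were, and their median log2 ratio was 0.33, against 0.019 for named genes. The count depended on the preparations and the scaling. Without preparation 2, 4 of 9 markers were above 0, with a median of -0.085. Cyclic loess gave 6 of 9, and 4 of 9 were above 0 under both 75th percentile scalings, which lowered the median of all probes from -0.07 to -0.71 (processed signal) or -0.39 (normexp values). The preparations differed in this: the median of the markers was 0.45 in preparation 1, 0.86 in preparation 2 and -0.07 in preparation 3, with medians of named genes of 0.11, 0.09 and -0.05. Ratios were above 0 for 6 of 9 markers in preparation 1, for 7 of 8 in preparation 2 and for 3 of 9 in preparation 3.

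**Figure D1:**
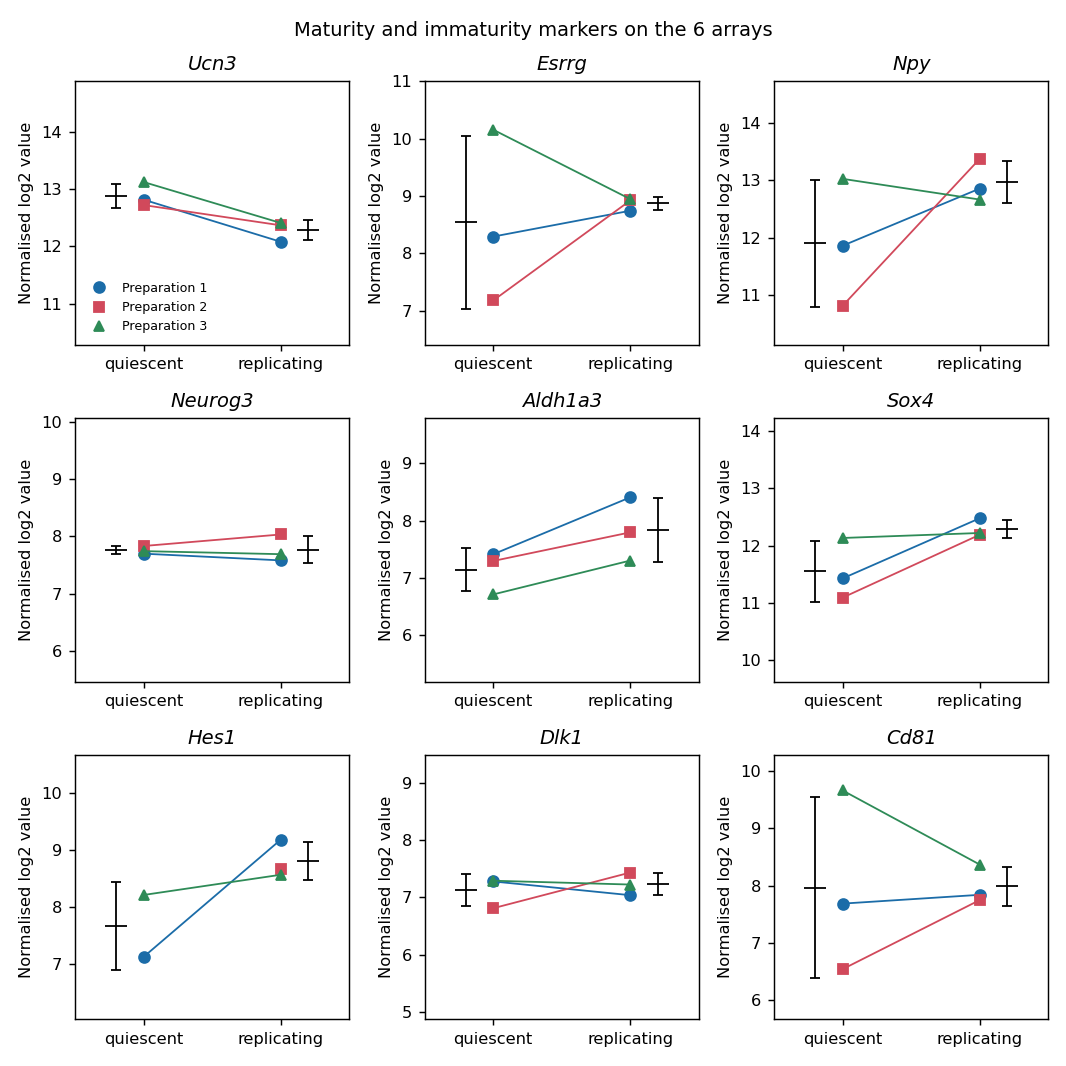
Normalised log2 values (vertical axis, same span of units in every panel) of the 9 markers on the quiescent and the replicating array of each islet preparation, each gene read by its probe with the highest mean. Coloured points are arrays, lines join arrays of 1 preparation, and black bars give the mean ± SD of each group. The lines of *Ucn3* all slope down and those of *Aldh1a3* and *Sox4* all slope up, while those of *Npy*, *Esrrg* and *Cd81* run in both directions.

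*Ucn3* was the only marker lower in the replicating cells of all 3 preparations. Its log2 value was 12.08, 12.37 and 12.41 on replicating arrays 1, 2 and 3, numbered by preparation, and 12.81, 12.72 and 13.12 on the matching quiescent arrays. The lowest quiescent value lay above the highest replicating value, so the groups did not overlap, as for 5.93% of named genes in this direction. The group means were 12.28 ± 0.18 and 12.88 ± 0.21 (SD, n = 3 each). Fitted over the pairs, the log2 ratio was -0.60 with an SE of 0.31 and an adjusted p of 0.479 in limma. This corresponds to a level of 0.659 of that in quiescent cells, with a 95% interval of 0.38 to 1.14. A ratio below 0 in all 3 preparations was found for 17.7% of named genes, and the smallest two-sided p of an exact sign-flip test over 3 pairs is 0.25. Without preparation 2 the log2 ratio was -0.73. The direction of *Ucn3* depended on what it was set against: with the processed signal scaled to the 75th percentile of each array its log2 ratio was -0.42 but lay 0.30 above the median of all probes, and with the same scaling of normexp values it was -0.40 and lay -0.015 from that median.

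*Esrrg* was not called, and its replicating arrays were close to each other while its quiescent arrays were not. The 3′ probe, at chr13:104407380-104407439, gave 8.74, 8.92 and 8.95 on replicating arrays 1, 2 and 3 and 8.29, 7.18 and 10.16 on the quiescent ones. The SD was 0.11 among replicating and 1.51 among quiescent arrays, and the within-preparation log2 ratios were 0.45, 1.75 and -1.21. Its fitted log2 ratio was 0.33 with an SE of 0.61, and without preparation 2 it was -0.38. The 5′ probe, at chr13:104404626-104404685, gave log2 ratios of 0.38, 1.56 and 0.004, all above 0, and a fitted ratio of 0.65 with an SE of 0.42. Both probes put the largest ratio in preparation 2, and they differed in preparation 3.

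*Npy*, which encodes neuropeptide Y, spread more among quiescent than among replicating arrays. Its probe was printed 10 times on each array, and the spots of 1 array had SDs of 0.087 to 0.189. The mean log2 value was 12.86, 13.38 and 12.66 on replicating arrays 1, 2 and 3, and 11.86, 10.81 and 13.03 on the quiescent ones. The replicating arrays had an SD of 0.37, while the quiescent arrays had an SD of 1.11, larger than that of the repeat spots on any array. *Npy* was higher in the replicating cells of preparations 1 and 2, by 1.00 and 2.57 on the log2 scale, and lower in those of preparation 3, by a log2 ratio of -0.36. Over the 3 pairs the log2 ratio was 1.07 with an SE of 0.61 and an adjusted p of 0.49 in limma, a 2.1-fold difference with a 95% interval of 0.717 to 6.12. Without preparation 2 the log2 ratio was 0.32, and without preparation 3 it was 1.78 and passed the call, at an unadjusted p of 0.0271 in limma. The fit without preparation 3 called 10745 of 45598 probes, against 3928 with all 3 preparations.

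*Cd81*, a tetraspanin of the cell surface, also had its lowest and highest values on quiescent arrays. Its probe is aligned over chr1:203341891-203342343, longer than the probe, and its log2 values were 7.84, 7.75 and 8.37 on replicating arrays 1, 2 and 3 and 7.69, 6.54 and 9.66 on the quiescent ones. *Npy*, *Cd81* and *Esrrg* each had their lowest value on quiescent array 2 and their highest or, for *Npy*, second highest value on quiescent array 3. Among the 8 markers with a value on every array 5 were lowest on quiescent array 2, as were 39.1% of named genes. The fitted log2 ratio of *Cd81* was 0.02 with a 95% interval of -1.36 to 1.41, and it was -0.57 without preparation 2. That interval includes a log2 ratio of 1 in both directions.

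*Aldh1a3*, which encodes a retinaldehyde dehydrogenase, was higher in the replicating cells of every preparation by its 3′ probe. Log2 values were 8.41, 7.80 and 7.31 on replicating arrays 1, 2 and 3 and 7.41, 7.30 and 6.71 on the quiescent ones. The groups overlapped, because preparation 1 was high on both arrays and preparation 3 low on both. The within-preparation log2 ratios were 0.99, 0.50 and 0.59, and without preparation 2 the fit gave 0.79. With all 3 pairs the log2 ratio was 0.70 with an SE of 0.32 and an adjusted p of 0.475 in limma, a 1.62-fold difference with a 95% interval of 0.927 to 2.83. A ratio above 0 in all 3 preparations was found for 18.2% of named genes. The 5′ probe of *Aldh1a3* gave log2 ratios of 0.75 and 0.49 in preparations 1 and 3 but -1.90 in preparation 2, where its quiescent array read 9.20 and its replicating array 7.30. This probe was well above background on 2 of 3 arrays of each group, and its fitted log2 ratio was -0.22 with an SE of 0.61.

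*Sox4*, a transcription factor of endocrine progenitors that adult islets also use, was the only one of the 8 markers with a value on all 6 arrays whose replicating values all lay above the quiescent ones, by its 3′ probe. Log2 values were 12.48, 12.19 and 12.22 on replicating arrays 1, 2 and 3 and 11.43, 11.09 and 12.13 on the quiescent ones. The gap was narrow, between 12.13 on quiescent array 3 and 12.19 on replicating array 2, and 11.1% of named genes had groups apart in this direction. The within-preparation log2 ratios were 1.05, 1.10 and 0.09, with a fitted ratio of 0.75, an SE of 0.36 and an adjusted p of 0.475 in limma. Without preparation 2 it was 0.57. Without preparation 3, where 10745 of 45598 probes were called, it was 1.07 and passed the call, at an unadjusted p of 0.0457 in limma. The other probes did not share this: the middle probe had a fitted log2 ratio of -0.72 with an SE of 0.50, and the 5′ probe one of -0.08 with an SE of 0.47. With the median over the 3 probes the log2 ratio of *Sox4* was -0.53. *Sox4* is thus not given a direction here.

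**Figure D2:**
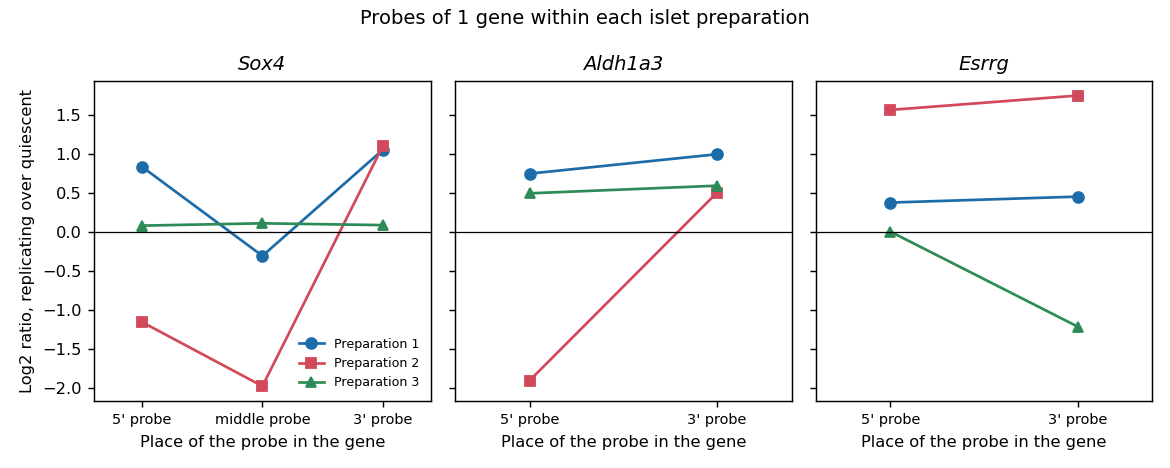
Log2 ratio of replicating over quiescent cells (vertical axis) within each islet preparation, for each probe of *Sox4*, *Aldh1a3* and *Esrrg*, from the 5′ to the 3′ end of the gene (horizontal axis). In preparation 2 the 5′ probe of *Aldh1a3* and the 5′ and middle probes of *Sox4* lie at -1.90, -1.16 and -1.98, while their 3′ probes lie at 0.50 and 1.10.

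Probes of *Sox4* and *Aldh1a3* disagreed most in preparation 2. From 5′ to 3′ the *Sox4* probes gave log2 ratios of -1.16, -1.98 and 1.10 there, 0.83, -0.31 and 1.05 in preparation 1, and 0.08, 0.11 and 0.09 in preparation 3. On quiescent array 2 the 5′ and middle *Sox4* probes read 9.12 and 11.67, higher than on any other array, while the 3′ probe read 11.09, its lowest value. The 5′ probe of *Aldh1a3* was likewise at its highest, 9.20, on that array, and its 3′ probe at 7.30 was not. The part that the differences of quiescent array 2 from all other arrays have in this was not tested.

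*Neurog3*, the transcription factor that commits progenitors to the endocrine fate, did not separate the groups. Log2 values were 7.58, 8.04 and 7.69 on replicating arrays 1, 2 and 3 and 7.70, 7.83 and 7.74 on the quiescent ones. The signal was well above background on all 6 arrays at chr20:29523585-29523644, as most probes were, and stayed between 7.58 and 8.04. The *Neurog3* mean of 7.76 over the arrays lay below the median of all probes on each array, which was 8.01 to 8.10. Its fitted log2 ratio was 0.01 with a 95% interval of -0.77 to 0.79.

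*Dlk1*, an imprinted gene whose protein is a non-canonical Notch ligand, did not separate them either. Its probe, at chr6:134028313-134028372, gave 7.04, 7.43 and 7.22 on replicating arrays 1, 2 and 3 and 7.28, 6.81 and 7.29 on the quiescent ones. Ratios were -0.24, 0.62 and -0.07 on the log2 scale, with a fitted ratio of 0.11 and a 95% interval of -0.77 to 0.98.

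*Hes1*, a repressor that Notch signalling induces, had the largest fitted ratio of the 9 and the least data behind it. Its log2 value was 9.18, 8.66 and 8.57 on replicating arrays 1, 2 and 3, and 7.13 and 8.21 on quiescent arrays 1 and 3. The spot on quiescent array 2 had been marked as an outlier by Feature Extraction and was set to missing, so that the fit rests on preparations 1 and 3, with log2 ratios of 2.05 and 0.35. All values of the replicating arrays lay above both quiescent values. Over these 2 pairs the log2 ratio was 1.20 with an SE of 0.58 and an adjusted p of 0.477 in limma, a 2.3-fold difference with a 95% interval of 0.758 to 6.96. The marked spot had a log2 value of 9.89, above every replicating array. With it kept, the fitted log2 ratio was 0.39. *Hes1* passed the call with no replicate block (log2 ratio 1.13, unadjusted p of 0.0477 in limma) and without preparation 2 (1.20, unadjusted p of 0.0469 in limma). The fit without preparation 2 uses the same 2 pairs of *Hes1* as the main fit and gave the same ratio, so only what limma draws from other probes differed. Without preparation 3 the log2 ratio was 2.05, with preparation 1 as the only pair and no spread of its own.

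**Figure D3:**
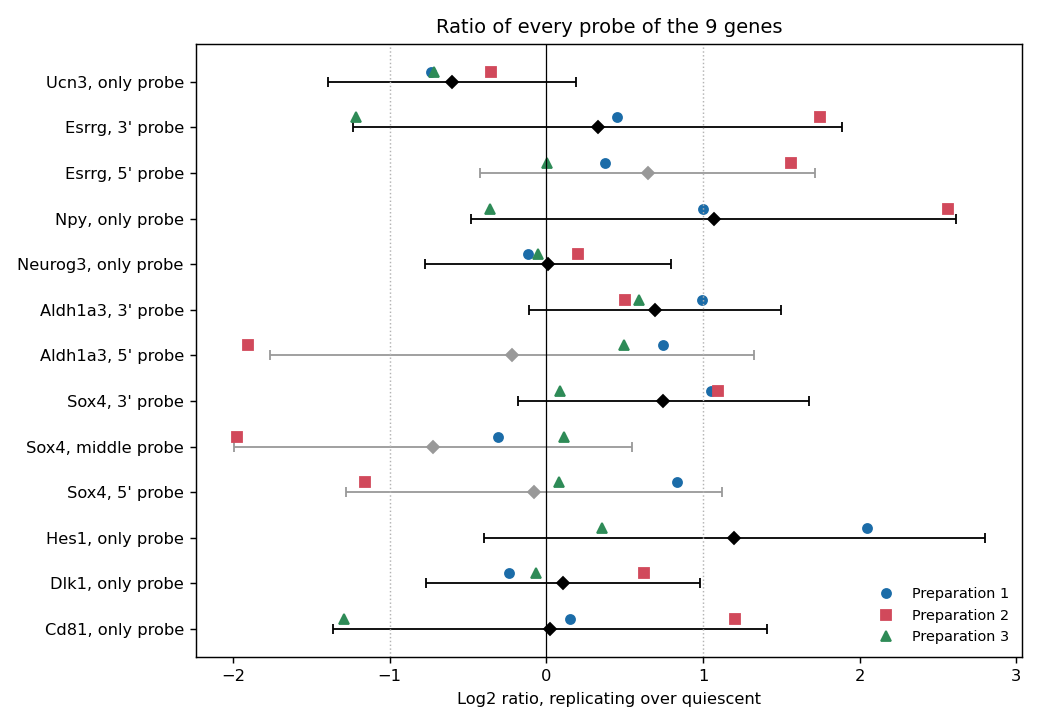
Log2 ratio of replicating over quiescent cells (horizontal axis) for the 13 probes of the 9 genes. Diamonds give the fit with its 95% interval, black for the probe that stands for the gene and grey for other probes, coloured points give the islet preparations, and dotted lines mark a log2 ratio of 1 in either direction. All 13 intervals include 0.

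In 7 of the 9 markers the SD was larger among quiescent than among replicating arrays, as in 86.3% of named genes. The genes whose values over the arrays came closest to a marker were looked up for *Npy* and *Hes1*, the markers of largest ratio, by Euclidean distance of centred log2 values among 14659 genes well above background on all arrays. For *Npy* these were *Gspt2*, *Myo9a* and *Tctn2*, at distances of 0.171, 0.173 and 0.175 over 6 arrays, where *Npy* itself lay 2.11 from its own mean. For *Hes1*, over the 5 arrays with a value, they were *Nup155*, *Piga* and *Dctd*, at 0.191, 0.225 and 0.225 against 1.53.

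The other genes of the pathways to which the markers belong were counted next. These 11 lists held 132 genes on the array, of which 10 (7.58%) were called, 9 higher and 1 lower, close to the 8.49% of all named genes. The 75th percentile scalings lowered the median of all probes from -0.07 to -0.71 (processed signal) or -0.39 (normexp values). List medians under these scalings that are set against 0 carry that shift.

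Of 19 further genes of mature β-cells, 0 were called higher and 1 lower. *Mafa*, the transcription factor that activates insulin genes in adult β-cells, fell: its log2 ratios were -1.25, -0.50 and -1.27, its means 12.16 ± 0.08 in replicating and 13.16 ± 0.43 in quiescent cells (SD, n = 3 each), and the fitted ratio -1.01 with an SE of 0.34 and an adjusted p of 0.475 in limma. The call of *Mafa* was lost under 7 of 14 alternatives, and over the 14 the ratio ran from -1.26 to -0.81. Its fellow factor *Pdx1* had a log2 ratio of -0.76 and the glucose transporter gene *Slc2a2* one of -0.70, both below 0 in all 3 preparations and not called. *Ins1* and *Ins2*, the insulin genes, had log2 ratios of 0.25 and 0.42. The median of the list was -0.04, with 9 genes above and 10 below 0, and it was above 0 under the 75th percentile scalings, at 0.12 for the processed signal and 0.09 for normexp values. Relative to the median of all probes it was 0.83 and 0.48 there, against 0.03 in the main analysis. With a preparation left out the list median, set against 0, ran from -0.22, without preparation 2, to 0.11, without preparation 3.

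Of 19 other genes of immature or dedifferentiated β-cells and genes normally kept silent in β-cells, 3 were called higher and 0 lower, with a list median of 0.20. Set against 0, that median did not keep its sign: it was -0.055 without preparation 3 (9 of 19 above 0), -0.015 with the processed signal and 0.001 with 75th percentile scaling of normexp values, and it was 0.11 without preparation 1. Relative to the median of all probes it was 0.70 with the processed signal and 0.39 with normexp values scaled so. In the same terms it was 0.009 without preparation 3 and 0.27 in the main analysis. *Igfbp4*, which encodes a binding protein of insulin-like growth factors, rose by a log2 ratio of 2.24 with an SE of 0.35 and was called under all 14 alternatives. Its means were 10.25 ± 0.55 in replicating and 8.01 ± 1.05 in quiescent cells (SD, n = 3 each), with ratios of 2.13, 2.78 and 1.80 in the 3 preparations. *Oat*, ornithine aminotransferase, rose by 1.88 and the lactate and pyruvate transporter gene *Slc16a1* by 1.25, with smaller ratios of 0.26 and 0.53 in preparation 3, and both calls were lost without preparation 1 and with the processed signal, that of *Oat* also with no replicate block and that of *Slc16a1* also with 75th percentile scaling of normexp values. Other members had ratios below 0 without a call, such as *Gast*, the gastrin gene, at -0.91 and *Myc* at -0.77.

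The endocrine progenitor cascade around *Neurog3* and *Sox4* had 1 of 15 genes called, with a median of 0.35, which was 0.148 without preparation 2, 0.569 without preparation 3 and 0.192 with 75th percentile scaling of normexp values. Under that scaling it lay 0.579 above the median of all probes, against 0.418 in the main analysis. *Gadd45a*, a growth arrest and DNA damage gene, rose by a log2 ratio of 1.54 with an SE of 0.33, by 1.31, 1.94 and 1.36 in the 3 preparations, and was called under all 14 alternatives. *Neurod1*, a direct target of *Neurog3*, had ratios of 1.37, 3.90 and -0.34 and, like *Rfx6* and *Foxa2*, was above 0 in preparations 1 and 2 and below 0 in preparation 3, as *Npy* was. The SoxC relatives of *Sox4* were not called and their fitted ratios had opposite signs, *Sox12* at 0.76 and *Sox11* at -1.02. *Sox12* was above 0 in all 3 preparations, and *Sox11* had ratios of -1.02, -2.28 and 0.24, so in preparation 3 both were above 0.

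Among 34 genes of the Notch pathway, 2 were called higher and 0 lower, with a median of 0.15, which was below 0 (-0.19 and -0.13) under the 75th percentile scalings of the processed signal and of normexp values. Relative to the median of all probes it was 0.52 and 0.26 there, against 0.22 in the main analysis. The receptor gene *Notch1* rose by a log2 ratio of 1.53, with 1.82, 2.28 and 0.48 in the preparations, and the coactivator gene *Maml2* rose by 1.72. Both calls were lost without preparation 1 and with the processed signal, that of *Maml2* also without preparation 2 and that of *Notch1* also with 75th percentile scaling of normexp values. The ligand gene *Dll3* had a log2 ratio of -0.86, below 0 in all 3 preparations, and the repressors *Hes5*, *Hey1* and *Heyl*, which like *Hes1* are Notch targets, had ratios of 0.28, 0.10 and 0.15. Of the imprinted neighbours of *Dlk1*, *Dio3*, the thyroid hormone deiodinase gene, rose by 1.26 and *Meg3*, the maternally expressed RNA, had a ratio of -0.11. The call of *Dio3* was lost under both 75th percentile scalings and without preparation 1.

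No gene of the urocortin and corticotropin-releasing factor family (0 of 6) was called, and all 6 log2 ratios were below 0, from -2.19 for *Crh* to -0.06 for *Crhr2*, a receptor of urocortin 3. Without preparation 1, 2 of the 6 lay above 0, and 1 did with cyclic loess and with the median over probes. The median of the list was -0.50. Without preparation 2 it was -0.38, with 0 of 6 above 0. The lowest ratio, that of *Crh*, came with -5.57 in preparation 2, whose quiescent array stood apart. The neuropeptide Y family had 1 of 7 genes called: *Ppy*, pancreatic polypeptide, which is also the hormone of PP cells, rose by 1.21, while the receptors *Npy2r* and *Npy5r* had ratios of -0.27 and -0.43.

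None of 16 genes of the retinoic acid pathway around *Aldh1a3* was called. Its relative *Aldh1a1* had a log2 ratio of 1.10, with 0.78, 2.27 and 0.25 in the preparations, and the list had a median of -0.16. None of 5 estrogen-related receptors and their coregulators was called, and *Esrra* had a ratio of 0.71. Of 12 tetraspanins and partners of CD81, 1 was called, and 11 had a log2 ratio above 0, with a median of 0.64 (7 and 9 were above 0 under the 75th percentile scalings of the processed signal and of normexp values, with medians of 0.69 and 0.63). Under each of these scalings 11 of the 12 lay above the median of all probes. Without preparation 2 the list median was 0.246. *Ptgfrn*, which encodes an immunoglobulin superfamily partner of CD81 and CD9, rose by 2.58, by 2.99, 3.21 and 1.55 in the preparations, and was called under all 14 alternatives.

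**Figure D4:**
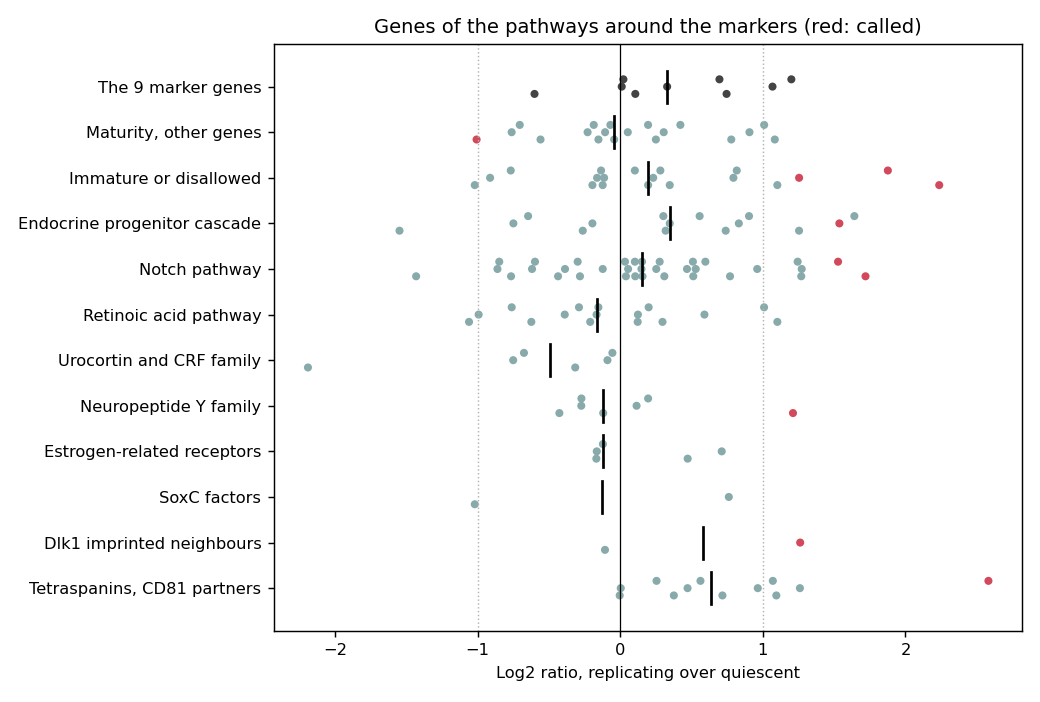
Log2 ratio of replicating over quiescent cells (horizontal axis) of the 9 markers and of the genes of 11 lists around them. Each point is a gene, red points were called, vertical bars are medians and dotted lines mark a log2 ratio of 1 in either direction. The medians lie between -0.50 and 0.64.

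Some genes of other cell types differed between the groups. Among named genes 5.87% were called higher in replicating cells, and 51% had a ratio above 0. All 10 mesenchymal markers had a ratio above 0 and 4 were called: *Col6a3*, *Col3a1* and *Col1a2*, which encode collagen chains, rose by log2 ratios of 3.06, 3.04 and 2.93, and *Vim* by 1.89. The log2 of the summed mesenchymal signal was 13.8 to 15.3 on replicating and 12.3 to 12.7 on quiescent arrays. Of 7 α-cell markers 2 were called higher, *Gcg*, the glucagon gene, by 2.39 and *Gc* by 1.86, with summed levels of 14.5 to 16.5 against 12.5 to 14.1. *Sst* and *Rbp4* of 4 δ-cell markers, *Ppy* of 2 PP-cell markers, *Spp1* of 6 duct markers, *Cd68* and *Cd74* of 6 leukocyte markers and *Prss1* of 6 acinar markers were called higher too. *Gcg*, *Spp1* and the 3 collagen genes were called under all 14 alternatives. The *Gc* call was lost under 4 of them, without preparation 1 and without preparation 2 among these, and the calls of the other genes named here under 2 or 3. The lists were not uniform: the other 5 duct markers were below 0, down to -1.75 for *Krt20*, as were *Ghsr* of the δ-cell list at -0.93 and *Cela1* of the acinar list at -0.82, while all 6 leukocyte markers were above 0. *Krt20*, *Ghsr* and *Cela1* were below 0 in preparations 1 and 2 only, and at 0.19, 0.21 and 0.19 in preparation 3. The duct marker *Krt7* was below 0 in all 3 preparations. None of 7 endothelial markers, which ran from -0.91 for *Cdh5* to 1.33 for *Plvap*, and none of 5 neural or Schwann cell markers was called. Of 7 β-cell markers 1 was called, *Mafa*, lower, and the summed β-cell level of 17.9 to 18.2 on replicating arrays lay within the 17.1 to 18.4 of quiescent arrays. The insulin genes make up most of that sum, and the median log2 ratio of the 7 genes was -0.56, with *Mafa*, *Pdx1*, *Slc2a2* and *Nkx6-1* below 0. That median is the ratio of *Nkx6-1*, which had no value on quiescent array 2. Within preparations 1, 2 and 3 the median of the list was -0.02, 0.37 and -0.95. No marker list had a gene that was below background on every array.

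As background, *Hes1*, *Sox4*, *Igfbp4*, *Notch1* and *Cd81* are also used outside β-cells. The part of other cell types in the ratios was not tested, and in sorted bulk samples fewer cells of a type and less RNA per cell cannot be told apart. Beside the lower *Ucn3* and *Mafa* values, the summed β-cell level was 17.9, 17.9 and 18.2 on replicating arrays 1, 2 and 3 and 17.8, 17.1 and 18.4 on the quiescent ones, higher on the replicating array in preparations 1 and 2 and lower in preparation 3.

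**Figure D5:**
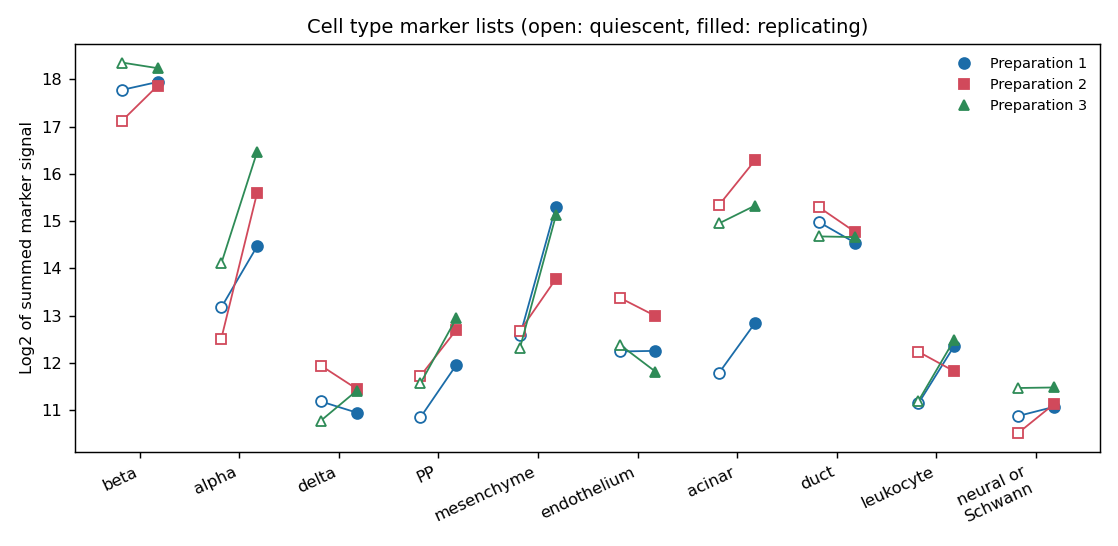
Log2 of the summed signal of 10 lists of cell type markers (vertical axis) on the quiescent (open symbols) and replicating (filled symbols) array of each islet preparation, joined by lines. Mesenchymal sums are 13.8 to 15.3 on replicating against 12.3 to 12.7 on quiescent arrays, α-cell sums are higher on the replicating array of each preparation, and β-cell sums overlap.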

How the data were processed

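RNA of sorted, fixed cells had been amplified as cDNA, labelled with Cy3 and hybridised to 1-colour Agilent rat arrays. The authors deposited scanner files with the intensity of each spot, read with Feature Extraction 10.7.3.1 and not normalised between arrays. They also deposited a table of log2 values per spot after normexp background correction and quantile normalization. These deposited log2 values were used. Values computed here from the intensity columns with normexp (offset 50) and quantile normalization differed from them by at most 0.00025. Spots that Feature Extraction marked as outliers were dropped, and repeat spots of a probe were averaged. Limma 3.58.1 in R 4.3.3 (with data.table, version 1.17.8, and jsonlite 2.0.0) was fitted to all 45598 non-control probes with a block for islet preparation, which the study's methods also paired on, and Benjamini-Hochberg adjustment over all probes. The labels and methods pair the arrays by preparation. In the data the 2 arrays of preparations 1, 2 and 3 deviated from the means of their groups with an r of 0.0561, 0.242 and 0.258. Arrays of different preparations had an r of -0.312 to 0.169, so the pair of preparation 1 did not stand out. Of several probes of a gene, the one of highest mean over all arrays stood for it. The number of arrays, 3 per group, limits the precision. The islet preparations are separate, so p-values rest on the spread of a probe between preparations. Limma moderates that spread with the spread of all other probes, so they do not measure it alone. The fit was tested on simulated data. The 9 genes and the lists were chosen with earlier results of these data known. All markers are reported, and from each list up to 3 called genes of smallest p, with other genes named where they bear on a marker, chosen after their values were seen. The array files give rn4 positions, and named genes follow their symbols. Alternatives were other normexp offsets, other scalings, a filter on dim probes, keeping outliers, leaving out the block, a trend of variance with level, averaging a gene's probes by their median and each preparation left out. All arrays shared 1 slide and scan, so no such block was fitted. The authors' cell counts and qPCR were not analysed here.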

Additional observations from a re-analysis of the deposited data

How the results depend on the processing

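Over 14 alternatives, *Ucn3* (-0.73 to -0.40), *Npy* (0.32 to 1.78), *Aldh1a3* (0.18 to 1.02) and *Hes1* (0.35 to 2.05) kept the sign of their log2 ratio. The other 5 markers did not, and the cause was not tested. The 75th percentile scalings moved the median of all probes from -0.07 to -0.71 (processed signal) and -0.39 (normexp values). The markers did not all move with it. With the processed signal *Ucn3*, *Npy*, *Sox4* and *Hes1* had ratios of -0.42, 1.15, 0.86 and 1.35, against -0.60, 1.07, 0.75 and 1.20 in the main analysis. In the same setting the ratios were -0.74 for *Neurog3*, -0.85 for *Dlk1*, -0.81 for *Cd81* and -0.32 for *Esrrg*, which lie -0.03, -0.14, -0.10 and 0.39 from the median of all probes. With normexp values scaled so they were -0.51, -0.44, -0.60 and -0.29, or -0.12, -0.06, -0.21 and 0.10 from it. Cyclic loess gave -0.0912 for *Cd81* and -0.0564 for *Esrrg*, and the median over probes gave -0.53 for *Sox4*. With 1 preparation left out, ratios ran from -0.0853 to 0.0741 for *Neurog3*, -0.15 to 0.28 for *Dlk1*, -0.57 to 0.68 for *Cd81* and -0.38 to 1.10 for *Esrrg*. No marker was called in the main analysis. With no replicate block 1 was, *Hes1*. With a preparation left out, *Hes1* was called without preparation 2, at the ratio of the main fit, and *Npy* and *Sox4* without preparation 3. *Hes1* passed there too, but on 1 pair only. Other alternatives called 0 and none gave a marker an adjusted p under 0.05. Called probes numbered 3928 (2023 higher, 1905 lower), 7458 (1596 and 5862) with 75th percentile scaling of normexp values and 3855 (662 and 3193) with the processed signal. They numbered 581 without preparation 1, 2260 without preparation 2 and 10745 without preparation 3. The processed signal called 4 of the pathway genes in place of 10, and leaving out a preparation 3 to 26. At the adjusted p, 719 probes were called with 75th percentile scaling of normexp values, 204 with cyclic loess, 99 with no replicate block, 61 with a variance trend and 84 without preparation 2. Signals just above background have ratios compressed towards 0 by the offset.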
